A study of Mus musculus with 4 samples.

Results

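Erythroid precursors are the nucleated cells of the bone marrow and spleen that build haemoglobin before they become red cells. The cells described here were selected on their transcripts, chosen by the UMI counts of 7 genes in a sort for CD4 T cells: a cell had to hold at least 2 UMIs (unique molecular identifiers, each standing for 1 captured RNA molecule) of at least 2 of the 5 genes Car1, Car2, Klf1, Gata1 and Hba-a1, and no UMI of the basophil proteases Mcpt8 and Prss34. Of 34918 cells with at least 1000 UMIs, at least 500 genes and at most 10% mitochondrial UMIs, 79 met this rule, 48 in replicate 1 and 31 in replicate 2. That is 0.252% of 19020 cells in replicate 1 (95% Clopper-Pearson interval 0.186 to 0.334%) and 0.195% of 15898 cells in replicate 2 (0.133 to 0.277%), a mean of 0.224% ± 0.0406 (SD, n = 2 libraries). The intervals overlap, and they cover counting error only.

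The study profiled TS1 transgenic CD4 T cells on a BALB/c RAG2-/- background, taken from mice with graft-versus-host disease (GVHD) 4 weeks after transplantation. Spleen, colon, skin, and the intraepithelial and lamina propria fractions of the small intestine were sorted, tagged by tissue with hashtag antibodies and pooled into 1 library per replicate. That genotype is the T cells'. Whether the erythroid and other non-T cells came from the donor or the recipient is not given in the sources used here. All cells compared below share the disease and time, no untreated group was analysed here, and a cell's tissue was not analysed here because the feature lists hold 0 hashtag features. Red cells of the spleen were lysed before the sort, and how many animals stand behind a replicate is not given in the sources used here. Every p-value therefore rests on a spread between these libraries, estimated jointly over genes. That spread may be technical and need not cover the spread between animals.

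Maturing erythroid cells pass from colony-forming progenitors, which express Kit, Gata2 and Myb, to erythroblasts in which GATA1 and KLF1 switch on the globin genes, the enzymes of haem synthesis and the proteins of the red-cell membrane. Iron enters through the transferrin receptor and is placed into protoporphyrin in the mitochondrion. The last divisions run alongside this build-up, after which the cell leaves the cell cycle and loses its nucleus. Carbonic anhydrase 1 (Car1) is abundant early in this course and carbonic anhydrase 2 (Car2) is shared with several other cell types.

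The 2 libraries held 89427990 and 108082997 UMIs, with medians of 2688 and 3699 UMIs per kept cell. They shared 599 kept cell barcodes, 3.15% of those of replicate 1 and 3.77% of those of replicate 2, and the shallower copy had a median of 6.57% of the UMIs of the deeper one. Among the 79 cells, 18 of 48 in replicate 1 and 22 of 31 in replicate 2 had a kept barcode in the other library, and 17 barcodes met the rule in both. The 2 sums of the 79 cells may thus not be separate. In the 23 shared barcodes that met the rule at least once the shallower copy held between 3.74 and 7.22% of the deeper one. The cause of this sharing was not tested. Keeping each barcode only in its deeper library left 61 cells, 42 in replicate 1 and 19 in replicate 2, or 0.223% and 0.122% of kept cells. Values per cell below are for these 61 cells, and each comparison is given for all 79 cells and again without the shallower copies.

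Set against marker genes, the label erythroid precursor was clearest for part of the 61 cells. Of these, 19 (12 in replicate 1 and 7 in replicate 2) held at least 15000 UMIs and fewer than 7 of 10 epithelial and of 10 macrophage markers, and all 19 had UMIs of Klf1 and of Gata1. These are called deep erythroid cells below, a class drawn after the values were seen. T cell markers were not part of that condition, and the 19 cells had UMIs of 5 to 10 of 10 T cell markers. A group of 26 shallower cells (24 and 2) carried at least 2 UMIs of 6 T cell genes per 1000 UMIs, with a median of 4.65 in replicate 1 against 11.3 in all other kept cells and 0.254 in the deep erythroid cells. In 12 shallow cells (6 in each library) T cell transcripts were few. Another 3 cells, all in replicate 2, had 272560, 186461 and 61987 UMIs and held 8, 10 and 9 of 10 epithelial markers, and 1 cell of replicate 2 with 29412 UMIs carried the macrophage genes Csf1r, C1qa, Vcam1 and Spic. The 3 epithelial-marked cells contributed 521008 of the 898817 UMIs of the members of replicate 2 in their deeper library, so where a level of that library moves by over 1.5 times without the epithelial- and macrophage-marked cells, its value over the 57 remaining cells is given too. The deep erythroid cells contributed 445870 of 558136 UMIs in replicate 1, and the shallow cells with T cell transcripts 77870. In replicate 2 the deep cells contributed 303877 UMIs, and the shallow cells with many and with few T cell transcripts 4639 and 39881. Levels over the 57 cells are therefore mostly those of the 19 deep cells. Whether droplets with 2 cells add to the shallow or the epithelial-marked cells was not tested, since no doublet caller was run.

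**Figure D1:**
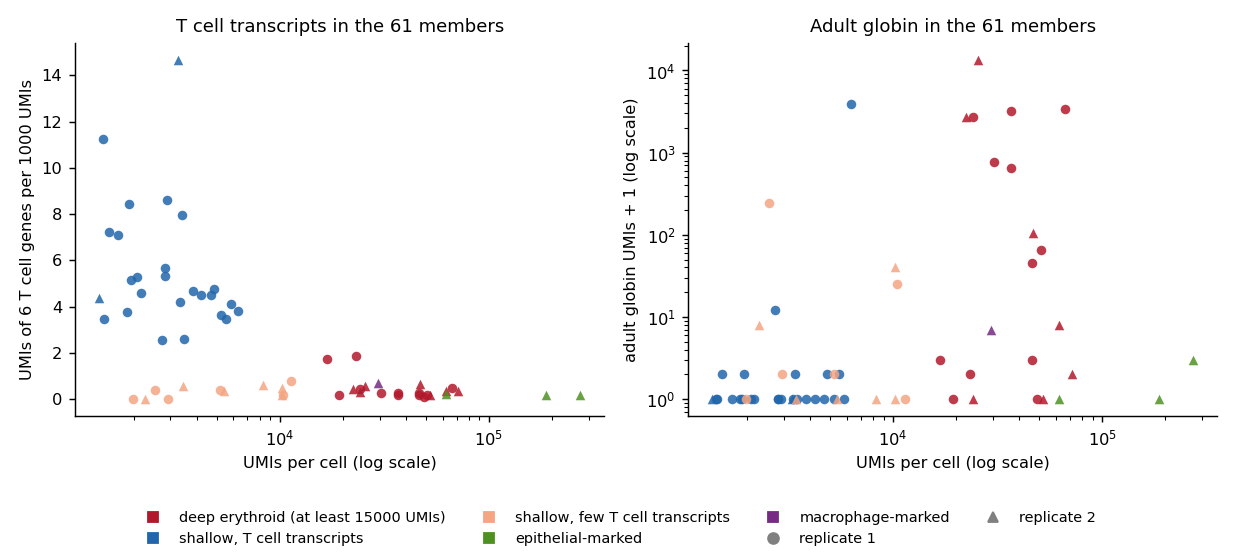
Each point is 1 of the 61 cells in its deeper library (circles, replicate 1; triangles, replicate 2), coloured by class, with UMIs per cell on a log axis; the left panel plots UMIs of 6 T cell genes per 1000 UMIs and the right panel adult globin UMIs plus 1 on a log axis. The 19 deep cells lie at the right with few T cell transcripts, and the 26 shallow cells with T cell transcripts lie at the left, 1 of them with 3933 globin UMIs.

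The rule genes chose the cells, so their levels are a description. In CPM, a gene's UMIs scaled to a fixed total of the summed UMIs of a cell set, Car1 stood at 3593 in the deep erythroid cells of replicate 1 and 3913 in those of replicate 2, against 7.8 and 6.0 in all other kept cells. Car2 stood at 2882 and 2504. Klf1, the factor that opens the adult beta-globin gene, was at 303 in both libraries, and Gata1, the master regulator of the lineage, was at 152 and 88.9. Gata1 was also present in basophil-lineage cells, at 32.6 and 64.3. Among the 61 cells 26 met the rule through Car1 and Car2 alone, and 12 met it through all 5 genes. An adult globin UMI was seen in 30 of 61 cells, a Klf1 UMI in 34, a Gata1 UMI in 32 and an Alas2 UMI in 8. In the shallow cells with T cell transcripts of replicate 1 Car1 stood at 4803 CPM and Car2 at 1181 CPM.

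Just inside the rule, 13 of 61 cells had fewer than 3 UMIs of their second rule gene. Just outside it, 72 cells of replicate 1 and 52 of replicate 2 had a single rule gene at 2 UMIs. In replicate 1 that gene was Car1 in 42, Car2 in 23 and Hba-a1 in 7. In replicate 2 it was Car1 in 13, Car2 in 21 and Hba-a1 in 18. None had Klf1 or Gata1 as that gene. The protease condition left out 1 cell in each library: a cell of replicate 1 with 27282 UMIs, 1988 adult globin UMIs and 1 Prss34 UMI, and a cell of replicate 2 with 3644 UMIs, 1 Mcpt8 UMI and no globin.

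The promoters of the alpha-globin gene Hba-a1, the beta-globin gene Hbb-bs and the erythroid aminolevulinate synthase Alas2 are shown because these 3 genes mark haemoglobin synthesis most directly in what follows. Each line gives the 250 bases before the start of the RefSeq gene (GRCm38.p6, the assembly of mm10), 5′ to 3′ on the gene's strand, at chr11:32283422-32283671 (plus strand), chr7:103827929-103828178 (minus strand) and chrX:150547167-150547416 (plus strand). Capitals mark matches, on either strand, to the GATA motifs AGATAA and TGATAA and to the CACC box CACCC or its longer form CCACACCC, which contains it.
Hba-a1: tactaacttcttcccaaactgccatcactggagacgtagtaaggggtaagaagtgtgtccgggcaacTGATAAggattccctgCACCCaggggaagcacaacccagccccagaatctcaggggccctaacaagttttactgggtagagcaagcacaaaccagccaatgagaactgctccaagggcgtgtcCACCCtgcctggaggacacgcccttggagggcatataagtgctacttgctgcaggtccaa
Hbb-bs: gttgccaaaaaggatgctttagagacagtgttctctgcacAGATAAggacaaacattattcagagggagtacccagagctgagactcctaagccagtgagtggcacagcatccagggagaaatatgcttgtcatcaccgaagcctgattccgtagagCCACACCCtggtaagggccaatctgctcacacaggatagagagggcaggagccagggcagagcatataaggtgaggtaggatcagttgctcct
Alas2: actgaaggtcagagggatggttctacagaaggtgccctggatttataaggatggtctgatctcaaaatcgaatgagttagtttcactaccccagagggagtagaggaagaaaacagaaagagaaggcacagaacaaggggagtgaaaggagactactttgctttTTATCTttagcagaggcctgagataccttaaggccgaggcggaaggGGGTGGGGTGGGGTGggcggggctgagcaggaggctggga
Either GATA motif was found in 16.6% of 32841 RefSeq promoters of this length and in 20 of 57 (35.1%) promoters of the erythroid lists used here, which matched 42 of 57 genes. The CACC box was in 52.0% of all promoters and in 35 of those 57 (61.4%). A match is a string of letters and was not tested as a binding site.

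Hbb-bs (mm10 chromosome 7, 103826534 to 103828096), an adult beta-globin gene under its mm10 reference name, stood at 16104 CPM in the 48 cells of replicate 1 and 11911 CPM in the 31 cells of replicate 2. All other kept cells had 32.1 and 53.3 CPM, and barcodes under 100 UMIs, which hold free RNA, had 110 and 215 CPM. Both sums of the selected cells lie above every comparison sum. The log2 fold change was 8.16 (SE 0.55, adjusted p = 1.66e-09, edgeR's quasi-likelihood test with Benjamini-Hochberg adjustment). The alpha-globin gene Hba-a1 helped choose these cells, so the tests of the beta-globin genes are not independent of that choice. In the 57 cells Hbb-bs stood at 16559 and 30701 CPM. Hbb-bt (641 and 442 against 1.76 and 3.00 CPM) rose by 7.62 on the log2 scale and stood at 1128 CPM in the cells of replicate 2 among the 57. Hba-a2 was at 2312 and 1707 CPM (4478 in replicate 2 among the 57) against 4.33 and 11.2. These levels are a description only, since the split of UMIs between Hba-a2 and the rule gene Hba-a1 is uncertain. The transcripts of Hba-a1 and Hba-a2 differ at 1 of the aligned positions outside gaps and those of Hbb-bs and Hbb-bt at 39, so the split of UMIs within each pair is uncertain. None of 6 embryonic and minor globin genes had enough UMIs to be tested.

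Globin was held by few cells. Of the 61 cells 9 had at least 1% adult globin, 7 of them deep, and 31 had no adult globin UMI. A single cell of replicate 2 (25430 UMIs) held 13552 of 16460 globin UMIs in that library's members, or 82.3%. In replicate 1 the richest was a shallow cell with T cell transcripts, where 3933 of 6287 UMIs (62.6%) were globin and which gave 26.1% of that library's 15049. In the 9 cells alpha-globin made up between 28.7 and 49.0% of adult globin UMIs (median 37.0%). The globin sum of replicate 2 thus leans on 1 cell, whereas 3 further cells of replicate 1 held 3372, 3225 and 2708 globin UMIs. With every cell thinned to 1500 UMIs, which left out 2 shallower selected cells in replicate 1 and 1 in replicate 2, 15 of 40 cells in replicate 1 (37.5%, Clopper-Pearson 22.7 to 54.2%) and 6 of 18 in replicate 2 (33.3%, 13.3 to 59.0%) had an Hbb-bs UMI. Other kept cells had one in 1.18 and 3.17%, and neutrophil-lineage cells in 2 of 75 and 0 of 82 (upper bound 4.40%). The share was thus higher in the selected cells, but it is not independent of the rule, which uses Hba-a1. Of the 61 cells 2 met the rule through Car2 and Hba-a1 alone. The intervals run over cells of a library and cover counting error only.

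Across all genes, 3569 of 13187 tested (27.1%) differed between the 79 cells and all other kept cells at an adjusted p under 0.05 in edgeR's quasi-likelihood test, 1364 higher (10.3%) and 2205 lower (16.7%). The median log2 fold change of all genes was -0.42, and -0.22 with RLE scaling, so a list is read against that shift. Higher genes made up 38.2% of calls, 47.9% with RLE scaling and 53.6% with DESeq2. Without the shallower copies 3294 of 13136 genes (25.1%) were called, 3191 of them among the first calls and all in the same direction. With the 57 cells that remain when the epithelial- and macrophage-marked cells are also left out, 5275 of 12962 (40.7%) were called, 2269 higher (17.5%) and 3006 lower (23.2%). T cell markers moved with the classes: the summed level of 10 T cell markers was 2122 and 2126 CPM in deep erythroid cells, 28329 and 72214 in shallow cells with T cell transcripts and 64010 and 65789 in other kept cells, and their part in the fold changes was not tested.

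In the 57 cells 8 of 9 haem synthesis enzymes tested were higher (median log2 fold change 3.54), against 17.5% of all genes. In all 79 cells 7 of 9 were higher, against 10.3% of all genes, and none was lower (median 2.83). Alad, the second enzyme, stood at 1228 and 512 CPM against 92.3 and 87.2 (log2 fold change 2.92, SE 0.34, adjusted p = 1.36e-06, edgeR). Uros, Urod and Cpox, later enzymes of the chain, rose by 2.82, 2.17 and 2.83, and Fech, which inserts the iron, by 3.25. Apart from Alas2, each called enzyme had a higher level in replicate 1 than in replicate 2. In the 57 cells the libraries lay closer, with Cpox at 385 and 359 CPM and Alad at 953 CPM in replicate 2. The 2 first-step enzymes differed. Alas2, the erythroid form, was at 36.4 and 47.4 CPM against 0.141 and 0.166 (log2 fold change 7.84), and at 126 CPM in replicate 2 among the 57 cells. Alas1, the form used by all other tissues, was at 17.3 and 63.6 against 21.6 and 21.3 CPM (log2 fold change 0.55, adjusted p = 0.422 in edgeR), and at 16.1 and 17.2 CPM in the 57 cells (-0.42, adjusted p = 0.464 in edgeR). Ppox had a log2 fold change of 1.31 (adjusted p = 0.0699, edgeR) and passed the test in the 57 cells (1.98).

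Iron and haem supply followed: 13 of 21 genes were higher and none lower (median 1.64), against 10.3 and 16.7% of all genes. Without the other-lineage cells 17 were higher and 2 lower, against 17.5 and 23.2% of all genes. Tfrc, the transferrin receptor, stood at 137 and 85.1 CPM against 15.7 and 14.6 and rose by 2.61 on the log2 scale. Steap3, which reduces endosomal iron, rose by 7.32 from 0.620 and 0.293 CPM to 116 and 56.0. Blvrb, a biliverdin reductase, rose by 6.66 and the iron exporter Slc40a1 by 5.49. Tmem14c, needed for porphyrin transport into mitochondria, rose by 1.95. In replicate 2 among the 57 cells Tfrc stood at 146, Steap3 at 106 and Slc40a1 at 23.0 CPM. Hmox1, haem oxygenase 1, was at 0 in replicate 1 and 125 CPM in replicate 2 and did not pass the test (log2 fold change 1.67, adjusted p = 0.159 in edgeR). It was at 0 in both libraries of the 57 cells.

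Among erythroid transcription factors 8 of 12 tested rose and none fell (median 2.97; Klf1 and Gata1 stayed out as rule genes). Tal1 stood at 88.3 and 22.6 CPM against 0.127 and 0.0893 (log2 fold change 8.52), Gfi1b at 100 and 46.3 against 0.310 and 0.204 (7.85), and the adaptor Lmo2 at 319 and 108 against 2.57 and 1.89 (6.18). Zfpm1, the partner of GATA1, rose by 1.96. Of 6 progenitor genes tested Myb rose (77.9 and 106 CPM against 5.26 and 4.96, log2 fold change 3.93), Runx1 fell by 2.37 and 4 did not pass. Kit was at 20.8 and 3.23 CPM against 25.2 and 23.2 (log2 fold change -1.53, adjusted p = 0.0534 in edgeR). Without the other-lineage cells replicate 2 had 51.7 CPM of Tal1, 118 of Gfi1b, 258 of Lmo2, 207 of Myb and 5.74 of Kit. The shares of all genes to set beside the lists of this paragraph were 10.3% higher and 16.7% lower. In the list of erythropoietin signalling 2 of 11 rose and 5 fell (median -1.23). Those that rose were Epor, the receptor (76.2 and 18.3 against 0.296 and 0.306 CPM, log2 fold change 6.76, and 45.9 CPM in replicate 2 among the 57 cells), and Tfr2, which binds it (8.75). Those that fell were Cish (13.9 and 16.2 against 161 and 167 CPM, fell by 3.66), Pim1, Socs2, Bcl2l1 and Jak2, which cytokine receptors of T cells also use.

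Membrane and cytoskeleton genes showed the largest median of the tested lists apart from the globins, with 17 of 19 higher, 1 lower and a median of 7.81 (8.44 in the 57 cells, with the same counts). Rhd, of the Rhesus complex, stood at 291 and 93.8 CPM against 0.423 and 0.191 and rose by 8.96 on the log2 scale, with 215 CPM in replicate 2 among the 57 cells. Its partner Rhag rose by 9.33, and band 3 (Slc4a1) by 8.66. Cd24a rose by 6.10. Epb41, whose protein 4.1 is widely expressed, fell by 1.68. Of 8 chaperone, redox and red-cell enzyme genes tested 5 rose and none fell, led by Hemgn (7.76) and Pklr (6.73), and Prdx2 rose by 3.74. Among terminal maturation genes 3 of 12 rose and 2 fell (median -0.44, near the median of all genes). For each list of this paragraph the shares of all genes were 10.3% higher and 16.7% lower (17.5 and 23.2% in the 57 cells). The falls of the maturation list lie near that share. Trim10 rose by 8.78, and the autophagy genes Map1lc3b and Gabarapl2 fell by 1.08 and 1.24.

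**Figure D2:**
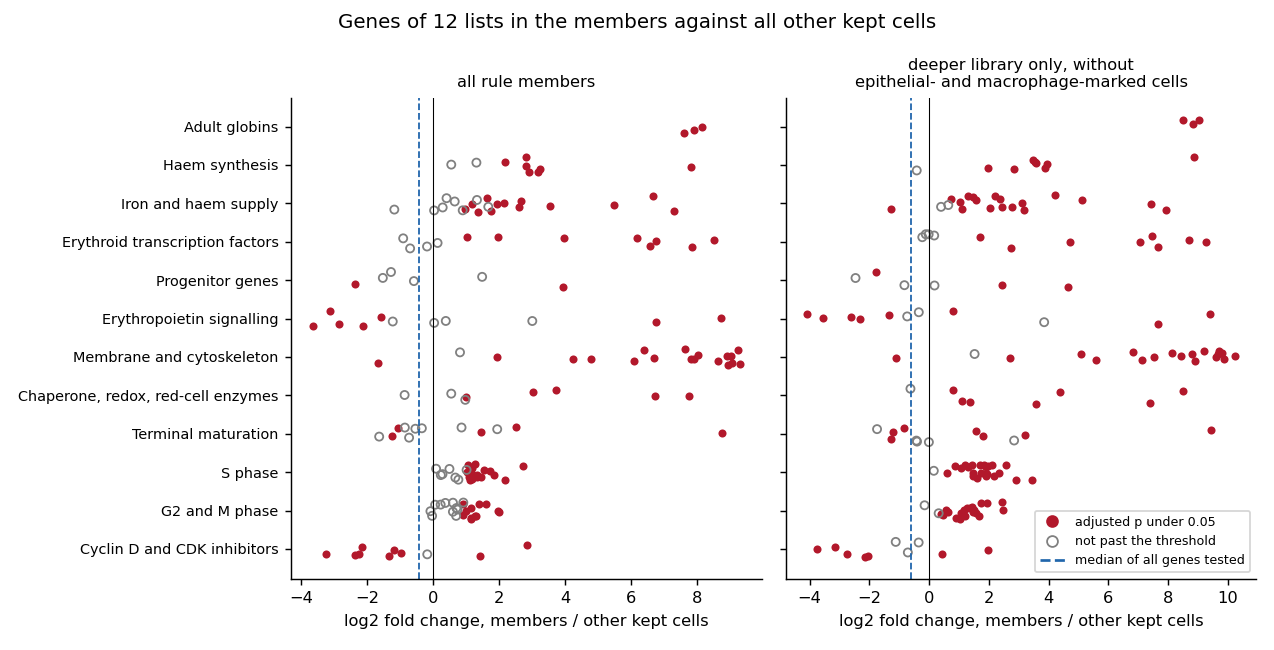
Each point is a gene of 1 of 12 lists, placed by its log2 fold change between the selected cells and all other kept cells (x axis), red where the adjusted p is under 0.05 and open grey otherwise; the left panel uses all 79 cells and the right panel the 57. Dashed lines mark the median of all genes tested (-0.42 at left), and the membrane list has 17 of its 19 genes to the right of it as called rises.

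Cell cycle genes were split by phase. Of 24 S phase genes 17 rose and none fell (median 1.17), and of 23 G2 and M phase genes 12 rose and none fell (median 0.91). Of all genes 10.3% rose. In the 57 cells the counts were 23 of 24 and 21 of 23, where 17.5% of all genes rose. Ccne1, the cyclin that starts DNA synthesis, stood at 236 and 128 CPM against 24.3 and 20.6 (log2 fold change 2.73, SE 0.31, adjusted p = 1.16e-06, edgeR), and at 233 and 281 CPM in the 57 cells. Cdc6, which loads the replicative helicase, rose by 2.17, Dut by 1.27 and Mcm5 by 1.02. Ccnb1, the mitotic cyclin, rose by 2.00 and Cks2 by 1.60. Mki67, a marker of cycling cells, stood at 165 and 116 CPM against 64.4 and 61.1 (log2 fold change 0.92, adjusted p = 0.0251 in edgeR). The 3 epithelial-marked cells held 26, 9 and 30 Mki67 UMIs, and in the 57 cells the levels were 168 and 83.2 CPM (1.02, past the threshold). Top2a was at 272 and 154 CPM against 177 and 160 (0.06, adjusted p = 0.909 in edgeR). At 1500 UMIs per cell 5 of 40 selected cells in replicate 1 and 0 of 18 in replicate 2 had an Mki67 UMI. The intervals of 4.19 to 26.8% and 0 to 18.5% include the 5.52 and 5.08% of other kept cells. These intervals and those that follow run over cells, cover counting error only and are no test of a difference. They also mix classes: 12 of the 40 cells were deep and 22 shallow with T cell transcripts, and of the 18 cells 7 and 1. The interval for Mcm5 lay above other kept cells in replicate 1 (10 of 40, 12.7 to 41.2%, against 6.19%) and not in replicate 2 (3 of 18, 3.58 to 41.4%, against 5.29%). For Pcna it lay above them in replicate 2 (5 of 18, 9.69 to 53.5%, against 5.07%) and not in replicate 1 (2 of 40, 0.611 to 16.9%, against 6.88%). Top2a had 6 of 40 and 1 of 18, with both intervals around the 13.5 and 12.1% of other kept cells.

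The cyclin D and CDK inhibitor list ran the other way against all other kept cells, with 7 of 10 lower and 2 higher (median -1.27). Of all genes 16.7% were lower and 10.3% higher. The comparison with basophil-lineage cells, given below, did not show most of these falls. Cdkn1b, the inhibitor p27, stood at 26.0 and 17.2 CPM against 91.6 and 96.1 and fell by 2.38 on the log2 scale, Cdkn2d by 2.25 and Cdkn2a by 3.26. Ccnd2 was at 29.4 and 153 CPM against 271 and 299 and fell by 2.18. Among the 57 cells it was at 68.9 CPM in replicate 2. Cdk4 rose by 1.43. Ccnd1 rose by 2.86, but from 5.19 CPM in replicate 1 and 115 CPM in replicate 2, and in the 57 cells it stood at 3.58 and 0 CPM (-1.12, adjusted p = 0.47 in edgeR). Ccnd3, the D cyclin of erythroid cells, had a log2 fold change of -0.18 (adjusted p = 0.72 in edgeR), of 0.02 with RLE scaling, and of 0.43 in the 57 cells (adjusted p = 0.00529 in edgeR).

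The 19 deep erythroid cells could be followed one by one after each was thinned to 15000 UMIs. Adult globin UMIs ran from 0 in 6 cells through 1, 1, 2, 14, 24 and 40 to 272, 398, 768, 1335, 1699, 1842 and 8049. So 12 cells had under 1% globin and 7 had between 1.81 and 53.7%, with a gap between 40 and 272 UMIs. Globin takes part of a fixed total, so a gene that rises with it does so against that loss, and a gene that falls may fall in share only. All values here are descriptions over 19 cells of 2 libraries, with no test.

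Haem synthesis UMIs per cell had a median of 27.5 (11 to 54) in the 12 cells low in globin and 79 (58 to 105) in the 7 high, with no overlap (Spearman's correlation with globin 0.913, n = 19). Per 1000 non-globin UMIs, before thinning, the medians were 1.75 and 5.57, again without overlap (0.883 to 3.12 against 3.41 to 12.1). Alad went from a median of 12 to 30 UMIs, Uros from 0 to 5 and Fech from 2 to 6. Alas2 was seen in 6 of the 19 cells and reached 19 UMIs in the cell richest in globin. Membrane and cytoskeleton UMIs went from 18.5 (8 to 43) to 87 (66 to 114) and Slc4a1 from 0 in all 12 low cells to 5. Iron and haem supply went from 140 (53 to 227) to 321 (216 to 405), where the ranges overlap.

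Progenitor genes ran against globin, with medians of 5.5 (0 to 16) and 1 (0 to 4) UMIs and a Spearman correlation of -0.751. Per 1000 non-globin UMIs, before thinning, their medians were 0.329 (0.0861 to 1.19) and 0.0596 (0 to 0.202). Myb was at 1.5 (0 to 8) and 0 (0 to 3) UMIs after thinning. Kit and Gata2 were at or near 0 in nearly all 19 cells, with at most 1 and 2 UMIs. Car1 had medians of 57 (34 to 137) and 50 (8 to 63) UMIs, and Car2 of 23 (6 to 86) and 48 (41 to 71), with overlapping ranges for both genes. The ratio of Car1 to Car2 was 3.78 (0.581 to 22.8) in the low cells and 0.854 (0.186 to 1.06) in the high cells, again with overlap.

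Cycle genes were higher in the globin-rich deep cells. S phase UMIs had medians of 69.5 (14 to 122) and 100 (71 to 154), with overlap, and G2 and M phase UMIs 34.5 (24 to 61) and 75 (59 to 120), with ranges that overlap between 59 and 61. Spearman's correlation with globin was 0.617 and 0.77. Per 1000 non-globin UMIs, before thinning, S phase ranged from 1.30 to 7.60 and from 5.36 to 12.3, with overlap. G2 and M phase ranged from 1.53 to 3.92 and from 4.28 to 8.73, without overlap. Mki67 had a median of 0 and 3 UMIs and Top2a of 1 and 7. Ccnd3 went from 2 (0 to 6) to 13 (2 to 25), while Ccnd2 had medians of 0.5 and 0. Ribosomal protein genes took 28.9 and 26.5% of UMIs, and 9.96% in the cell with most globin. Of the 19 cells 2, both in replicate 1 and low in globin, carried 177 and 182 UMIs of T cell markers against 14 to 55 in the other 17.

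**Figure D3:**
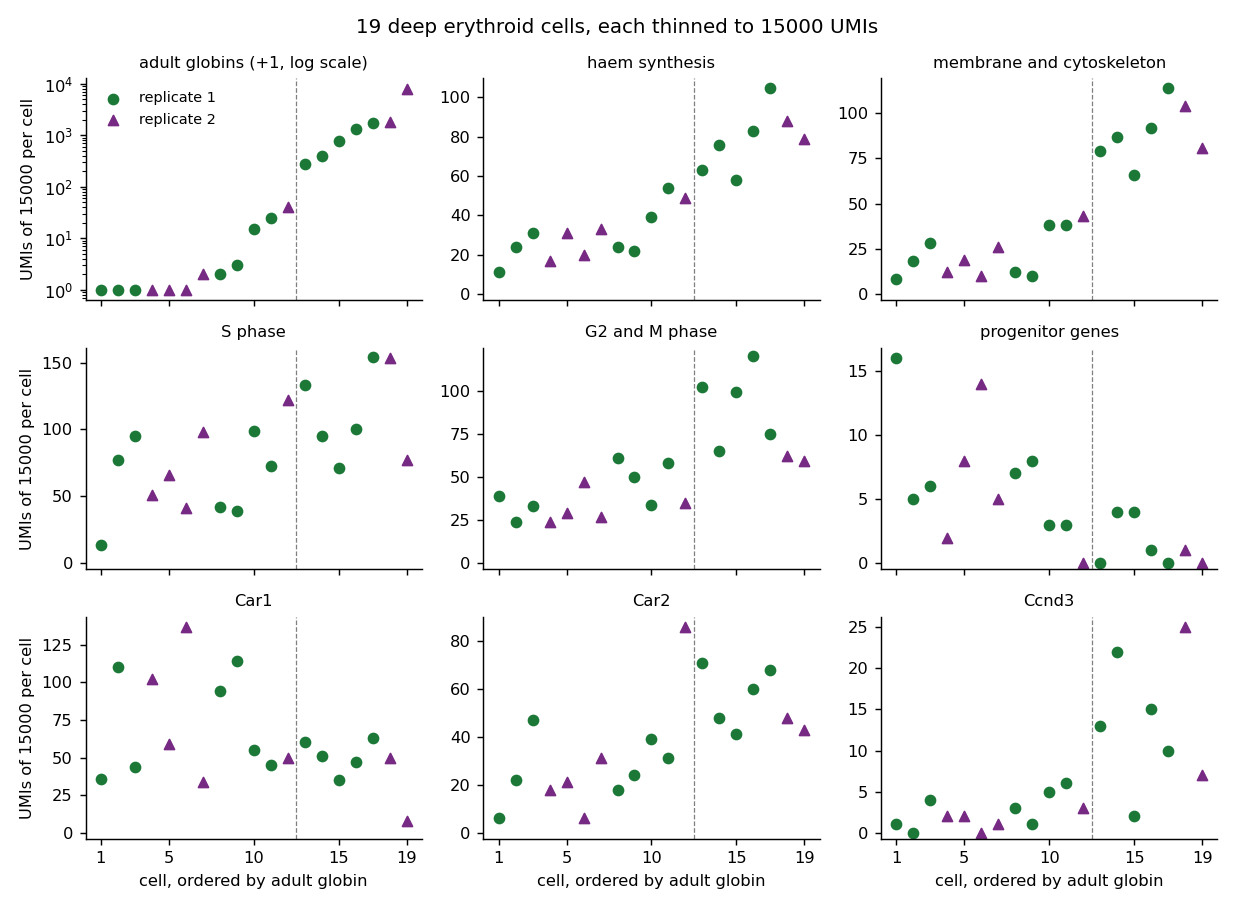
The 19 deep erythroid cells, each thinned to 15000 UMIs, are ordered along the x axis by adult globin, with UMIs of a list or gene on the y axis (circles, replicate 1; triangles, replicate 2; the globin panel is UMIs plus 1 on a log axis). To the right of the dashed line are the 7 cells with at least 1% globin, where haem synthesis runs from 58 to 105 UMIs against 11 to 54 to the left.

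Neutrophil-lineage cells (129 and 89) and basophil-lineage cells (35 and 19), which were also found in the sort, allow further comparisons. Neither group was free of T cell transcripts. In their deeper library, T cell gene UMIs per 1000 UMIs had medians of 7.60 and 1.12 in neutrophil-lineage cells (replicates 1 and 2). The medians were 8.73 and 0.666 in basophil-lineage cells, against 11.3 and 11.2 in all other kept cells. The part of these transcripts in the fold changes was not tested. Against the neutrophil-lineage cells 2949 of 6417 genes (46.0%) were called, 1400 higher (21.8%) and 1549 lower (24.1%). Without the shallower copies 41.1% of genes were called, and in the 57 cells 3523 of 5500 (64.1%), 1674 higher (30.4%) and 1849 lower (33.6%). Of 9 haem synthesis genes 7 rose and 1 fell (median 3.34 against 0.03 for all genes). The one that fell was Alas1 (17.3 and 63.6 against 72.7 and 102 CPM, log2 fold change -1.85). S phase genes rose in 10 of 24 (median 0.84), and in 21 of 24 in the 57 cells, while G2 and M phase genes had a median of 0.02 with 1 higher and 1 lower. Mki67 and Top2a did not pass there. Slc40a1 did not pass either, at 58.9 and 71.1 against 56.7 and 43.0 CPM.

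Against the basophil-lineage cells, which share Gata1, 1495 of 4829 genes (31.0%) were called, 676 higher (14.0%) and 819 lower (17.0%). Without the shallower copies 31.5% of genes were called, and in the 57 cells 2218 of 3811 (58.2%), 1080 higher (28.3%) and 1138 lower (29.9%). All 7 haem synthesis genes tested rose (median 3.12), while Alas1 and Ppox did not pass the expression filter and were not tested. Alas2 (0 CPM in both basophil sums) and Uros (6.47 and 7.06 CPM) passed that filter through the selected cells, so their rises are descriptions. Gata2 fell by 6.82 on the log2 scale (13.9 and 2.16 against 680 and 1031 CPM, and 5.74 in replicate 2 among the 57 cells) and Runx1 by 4.44. Gfi1b, at 100 and 46.3 against 19.4 and 21.2 CPM, did not pass the test (log2 fold change 1.86, adjusted p = 0.0533 in edgeR). It passed without the shallower copies (1.85, adjusted p = 0.0489 in edgeR), in the 57 cells (2.32) and in the deep cells (2.42). Of 24 S phase genes 9 rose (median 1.28), and of 22 G2 and M phase genes 6 rose (median 1.03), none falling. In the 57 cells 19 of 24 and 12 of 20 rose. Ccne1 rose by 3.87. In the cyclin D and CDK inhibitor list Cdkn2d fell by 2.13 and Cdk4 rose by 2.05. Ccnd2, Ccnd3, Cdkn1a, Cdkn1b, Cdkn2c and Rb1 did not pass the test. In the deep cells Ccnd2 also fell (log2 fold change -1.66, adjusted p = 0.0088 in edgeR). The neutrophil and basophil comparisons share the selected cells, so their values are given side by side only.

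**Figure D4:**
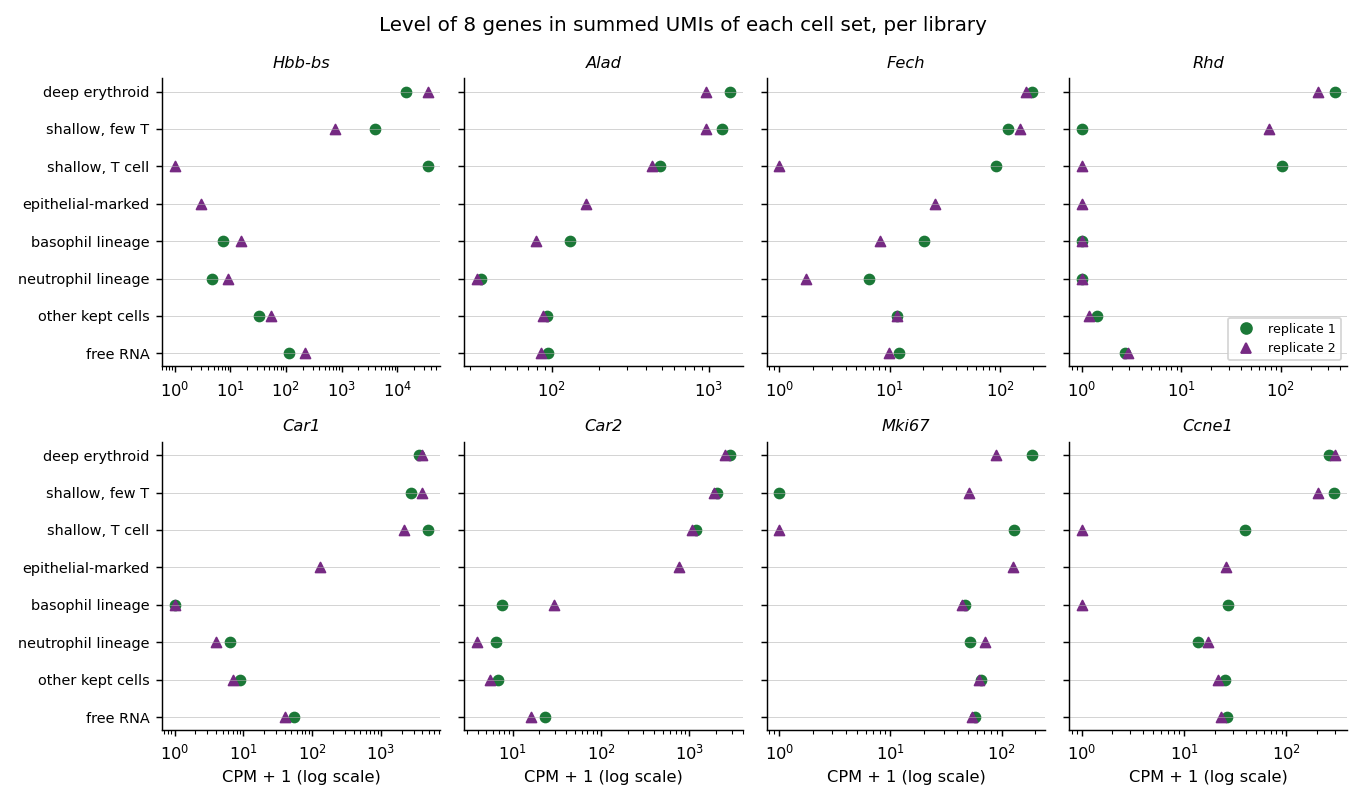
Levels of 8 genes in CPM plus 1 on a log x axis, summed over each cell set listed on the y axis, with 1 point per library (circles, replicate 1; triangles, replicate 2). Hbb-bs lies at 14262 and 35100 CPM in deep erythroid cells and at 32.1 and 53.3 in other kept cells, whereas Mki67 lies at 188 and 88.9 against 64.4 and 61.1.

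Outside the lists, the largest rises, among genes that reached 50 CPM where they were higher, included Tspo2 (90.0 and 21.6 CPM, 54.5 CPM in replicate 2 among the 57 cells, log2 fold change 10.43), Slc38a5 (9.92), Cldn13 (9.26), Paqr9, Slc25a21, Gsdmc2, Nxpe2, Gsdmc4 and Col5a1. Tspo2 encodes an erythroid relative of the mitochondrial translocator protein and Slc38a5 a glutamine transporter. Gsdmc2 stood at 12.1 CPM in replicate 1 and 252 CPM in replicate 2, where the epithelial-marked cells lie, and it was not tested in the 57 cells. The part of the epithelial-marked cells in the rises of Slc25a21, Gsdmc4 and Col5a1 is not given here. The largest falls were those of Defa30, Csf2 (log2 fold change -6.94), Wfdc21, S100a9, Tnfsf8 (-5.98), S100a8, Ngp, Pglyrp2, Lta (-5.71) and Ikzf3 (-5.71). Csf2, Tnfsf8 and Lta are T cell cytokine genes and Ikzf3 a lymphoid factor, and S100a8, S100a9 and Ngp are neutrophil genes.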

How the data were processed

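Single-cell RNA was measured in 2 expression libraries (10x 3' v3), 1 per replicate. The deposited matrices hold UMI counts per gene and barcode that the authors made with Cell Ranger 3.1.0 against mm10, per the file headers and the submitters' processing notes. The barcode tables were not limited to cells, so cells were kept at 1000 UMIs, 500 genes and at most 10% mitochondrial UMIs. No doublet caller was run. The hashtag libraries were not used, because their feature lists hold 0 hashtag features.

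The members, the gene lists and the comparisons were chosen with earlier results of these data known. Counts were summed per library over members and over the comparison cells, and the 4 sums were fitted with edgeR 4.0.16 (R 4.3.3; TMM scaling, filterByExpr, quasi-likelihood test, Benjamini-Hochberg adjustment over all genes, threshold 0.05), with the library as a block because members and comparison cells of 1 number come from the same library. This leaves 1 residual degree of freedom, so the spread of a gene was estimated together with that of the other genes. The 7 rule genes were left out of every test, and the genes that chose the neutrophil- and basophil-lineage cells out of theirs. A gene near 0 CPM in 1 class could pass the filter only through the other class, which set the direction of its call. DESeq2 1.42.0, RLE scaling, no filter, other rules and thinning to 1500 UMIs were alternatives. On simulated counts for the comparison with all other kept cells (12979 genes), 2 of 50 genes changed 2-fold, 31 of 50 changed 4-fold, 46 of 50 changed 8-fold and 49 of 50 changed 16-fold were called, with 4 of 12779 unchanged genes. The simulation drew each sum independently, with the same spread for every gene. It does not carry the weight of single cells or the shared barcodes of these data.

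All measured genes of the lists could be named. Outside them the 10 largest rises and 10 largest falls were named among called genes that reached 50 CPM on the higher side and moved alike in both libraries. CPM are a cell set's summed counts scaled to a common total. Promoter sequences are RefSeq's (GRCm38.p6), and gene positions are GENCODE's for mm10. Results for some genes that this rule covers are not reported here.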

Additional observations from a re-analysis of the deposited data

How the results depend on the processing

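Of the 3 counts of genes called, those against all other kept cells moved most: 1 gene with the 6 cells that held no T cell UMI, 1399 with cells thinned to 1500 UMIs and 5385 with cells that met 3 of the 5 rule genes, against 3569. Against neutrophil-lineage cells DESeq2 called 1274 genes and the cells without T cell UMIs 200, and against basophil-lineage cells 674 and 312. Without the replicate block, which pairs the sums of 1 library, 4630, 2682 and 1451 genes were called. The share of members had a mean of 0.118% with 3 of 5 genes, 0.397% with 1 UMI per gene, 0.171% with 3 UMIs, 0.159% thinned and 0.173% in the deeper library, and ran from 0.195 to 0.252% when 1 replicate was left out.

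Of 51 named genes 5 changed direction in log2 fold change under some alternative. Alas1 stood at -0.34 in members with Klf1 or Gata1, -0.42 without other-lineage cells, -0.82 in deep cells, -0.68 with 3 of 5 genes and -0.11 thinned, and between -0.30 and 1.53 without 1 replicate. Top2a stood at -0.077 without the filter, -0.20 without T cell UMIs and -0.55 thinned, and between -0.053 and 0.62 without 1 replicate. Ccnd1 stood at -1.05, -1.12, -0.93 and -1.05 in the first 4 of these settings. Ccnd3 stood at 0.021 with RLE scaling, 0.020 with DESeq2, 0.50 with Klf1 or Gata1, 0.43 without other-lineage cells, 0.50 in deep cells, 0.56 with 3 of 5 genes and 0.014 thinned, and between -0.65 and 0.72 without 1 replicate. Cdk4 stood at -0.15 without T cell UMIs. The cause was not tested. Without replicate 1, 31 of 51 named genes moved by more than their SE in the same direction and 19 by less. Without replicate 2, 42 moved by more and 7 by less, so the sizes of the fold changes differ between libraries. Leaving out a replicate leaves no residual degrees of freedom, so gene counts have no such value. With 14 of 51 named genes at 0 UMIs in the cells without T cell UMIs, that setting tests little.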
